A study of Saccharomyces cerevisiae with 14 samples.

Results

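The variants described here carry Gln or Asn at position 5 of human cofilin-1, in place of the native Val. They are 1600 of the 16000 members of a yeast expression library, 800 with Gln5 and 800 with Asn5, taken as every 4-residue name (cofilin positions 2 to 5) that ends in Q or N. The choice used no measured value. Each residue comes with all 20 amino acids at position 2, with Ser or Thr at position 3 and with all 20 at position 4, so that every Gln5 variant has 1 Asn5 partner that shares its other residues.

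The study grew the library competitively in yeast and counted reads per variant. The host was a Saccharomyces cerevisiae TeTO7-COF1 strain, in which doxycycline (DOX) shuts off the native cofilin gene. Growth on DOX therefore rests on the human variant, made constitutively from a GPD promoter plasmid with an N-terminal His6 tag. All cells also carried a full-length FLAG-LIMK1 plasmid under the GAL1 promoter, silent in glucose and on in galactose. In each of 3 screens 8 libraries were read: a glucose library without DOX (T-1), the culture after raffinose (2%) with 10 mg/L DOX (T0), then T1, T2 and T3 in raffinose with 1% galactose and DOX (LIMK1 on) and T1, T2 and T3 in 2% glucose and DOX (LIMK1 off). The screens were grown from frozen aliquots of 1 transformed pool, so their spread is that of repeat cultures. The 24 libraries held 7185497 to 61265998 reads (median 23863730). No Gln5 or Asn5 variant had 0 reads at T-1, at T0 or at any time in glucose, while up to 10 Gln5 and up to 11 Asn5 variants had 0 reads in a galactose T3 library.

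Cofilin severs and depolymerises actin filaments, and its short N-terminal tail forms part of the actin-binding surface. LIM kinases such as LIMK1 phosphorylate the residue at position 3, Ser in native cofilin, which blocks actin binding. Position 5 is Val in the human wild-type tail (ASGV) and in the yeast one (RSGV). Asn and Gln both carry a neutral amide side chain, with Gln longer by a methylene group, and each is the amide counterpart of an acidic residue, Asp for Asn and Glu for Gln.

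The coding stretches below are those on which the results turn. Each has 12 bases for positions 2, 3, 4 and 5, and the capitals mark the codon of position 5, CAG for Gln and AAC for Asn in every member. The first 4 lines are 2 pairs of partners in which Gln5 did far better than Asn5 in glucose, the next 2 a pair in which Asn5 did better, then 2 of the Asn5 variants that rose, 2 pairs that differ at position 3, and the human tail with either amide.
NTFQ: aacaccttcCAG
NTFN: aacaccttcAAC
WTGQ: tggaccggtCAG
WTGN: tggaccggtAAC
LSIQ: ctgagcatcCAG
LSIN: ctgagcatcAAC
WTLN: tggaccctgAAC
FTLN: ttcaccctgAAC
FTPQ: ttcaccccgCAG
FSPQ: ttcagcccgCAG
CTVN: tgcaccgttAAC
CSVN: tgcagcgttAAC
ASGQ: gctagcggtCAG
ASGN: gctagcggtAAC

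Both residues lost most of their share of the pool after T0. In the step with raffinose and DOX that ends at T0 both shares had risen. Each makes up 5% of the variants. Gln5 variants held 5.57% ± 0.27 of reads at T-1 and 6.65% ± 0.48 at T0 (SD, n = 3 screens, as for all shares below). In glucose the Gln5 share was 2.98% ± 0.28 at T1, 1.02% ± 0.18 at T2 and 0.71% ± 0.15 at T3. Asn5 variants held 3.84% ± 0.20 at T-1 and 5.00% ± 0.33 at T0, then 1.35% ± 0.15, 0.402% ± 0.114 and 0.309% ± 0.090 at T1, T2 and T3 in glucose. With LIMK1 on, the Gln5 share was 2.63% ± 0.20, 1.43% ± 0.21 and 0.931% ± 0.060 at the same times, and the Asn5 share 1.18% ± 0.13, 0.483% ± 0.061 and 0.307% ± 0.032. At every time after T0, in both media, the Gln5 share was above the Asn5 share by more than the spread between screens. Counts are PCR reads rather than molecules, and the few reads that members kept late in galactose (a median of 15 to 69 per Gln5 variant and 12 to 58.5 per Asn5 variant at T3) limited the precision there.

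Most of the loss fell in the first intervals. In glucose the median Gln5 variant changed by -2.48 ± 0.20 on the log2 scale between T0 and T1, by -2.16 ± 0.54 between T1 and T2 and by -0.18 ± 0.21 between T2 and T3 (SD, n = 3 screens). For the median Asn5 variant these changes were -2.73 ± 0.28, -1.95 ± 0.52 and -0.06 ± 0.23, and for the median of the whole library -2.17 ± 0.18, -1.63 ± 0.41 and -0.08 ± 0.12. In the last glucose interval the medians lay within 1 SD of 0 for both residues. In galactose loss went on to the end: from T2 to T3 the median changed by -0.68 ± 0.28 for Gln5, by -0.49 ± 0.20 for Asn5 and by -0.49 ± 0.19 for the whole library.

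Levels of single variants are given in RPM, the reads of a variant per 1000000 reads of its library. Growth support was measured as the log2 change of a variant between T0 and T2 in glucose, fitted over all 16000 variants with edgeR's quasi-likelihood test with the screen as a block and Benjamini-Hochberg adjustment at 0.05. Among Gln5 variants 13 rose, 737 fell and 50 passed in neither direction. Among Asn5 variants 3 rose, 777 fell and 20 passed in neither. In the whole library 20.9% of variants rose and 70% fell. The members' share of risen variants was thus far below the background. The mean change was -4.10 ± 0.65 for Gln5 and -4.39 ± 0.66 for Asn5 (SD of 3 screen means), against -2.80 ± 0.49 for the library. Screen 3 was the lowest for both residues, with means of -4.84 for Gln5 and -5.14 for Asn5, and it was the lowest for the library as well (-3.37). Changes of single members correlated between screens with r of 0.78 to 0.83 over 1600 variants that share libraries.

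These changes are relative to all reads in a library. Scaling by the trimmed mean of M values (TMM) moved the median of all variants up by 2.88 on the log2 scale, and DESeq2 size factors moved it up by 3.99. Under TMM 90 Gln5 variants rose and 514 fell, 35 Asn5 variants rose and 552 fell, and 5241 of all variants rose and 8180 fell. Under DESeq2 166 Gln5 variants rose and 340 fell, 110 Asn5 variants rose and 378 fell, and 6305 of all variants rose and 6038 fell. Under each scaling a smaller share of Gln5 and Asn5 variants than of the library rose. Differences between 2 variants of the same libraries, on which the pair comparisons below rest, do not depend on the scaling.

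By mean change in glucose the 20 residues at position 5 ran from Met at 1.44 ± 0.26 to Arg at -5.18 ± 0.95, and Gln5 was in place 12 and Asn5 in place 13. Just above them stood Gly5 at -3.80 ± 0.58, higher than Gln5 in every screen, by at least 0.18. By the median the order of these 2 turned, with Gln5 at -4.51, Gly5 at -4.64 and Asn5 at -4.65, and 63 Gly5 variants rose. Gln5 was above Asn5 in every screen, by at least 0.20. Asn5 was above the next residue, Tyr5 (-4.76 ± 0.80), in every screen, by at least 0.12. Below Asn5 the neighbours Tyr5 and His5, Glu5 and Asp5, were not apart beyond their spread. With only 3 screens an exact two-sided sign test cannot give a p under 0.25.

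The amides did better than the acids they correspond to. In pairs that share positions 2 to 4, Gln5 exceeded Glu5 by a mean of 0.92 ± 0.20 (SD, n = 3 screens), and limma with adjustment over all 152000 pairs that differ only at position 5 found Gln5 higher in 239 and Glu5 higher in 41 of 800 pairs. Asn5 exceeded Asp5 by 0.66 ± 0.24, with 186 pairs in favour of Asn5 and 34 in favour of Asp5. The longer acid had no such lead over the shorter one: Glu5 minus Asp5 averaged 0.02 ± 0.03, with 71 and 75 pairs called each way. Both acids were among the lowest residues, at -5.03 ± 0.84 and -5.05 ± 0.84, with 785 and 786 of 800 variants fallen. Whether a lead could show at such low values was not tested. Against a residue that works well at this position the gap was wide. Gln5 was below Met5 by a mean of 5.55 (difference -5.55 ± 0.75), with 1 pair in favour of Gln5 and 762 of 800 in favour of Met5. Of all such pairs 58.5% were called in 1 direction or the other. For Gln5 against Asn5 the share was 29.1%.

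The makeup of the 16 members that rose is given beside that of all 3352 risen variants, with no test. Of the 13 Gln5 variants that rose, 7 had Phe4, 3 Tyr4, and 1 each Met4, Pro4 and Thr4. In the library 257 of the risen variants had Phe4, 215 Tyr4, 274 Met4, 81 Pro4 and 109 Thr4. At position 2 they had Ile (4), Asn (4), Leu (2), Phe, Pro or Val (1 each), and 11 had Thr3, as had 1897 of the library's risen variants. All 3 Asn5 variants that rose had Leu4, the residue most often found at position 4 among the library's risen variants (364). The highest of the 16 ranked 1401 of all 16000 variants.

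NTFQ, with Asn2, Thr3 and Phe4, was the highest of all members. It had 30.8, 30.4 and 41.4 RPM at T0 in screens 1, 2 and 3, then 167, 163 and 116 at T1, 182, 131 and 163 at T2 and 186, 107 and 126 at T3 in glucose. Every library after T0 was above every T0 library. Its log2 change from T0 to T2 was 2.21 ± 0.36 (SE, edgeR adjusted p = 1.7e-09). The human wild-type tail ASGV changed by 3.18 ± 0.24.

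The Ser3 form of the same tail, NSFQ, also rose. It had 279, 186 and 205 RPM at T2 in glucose, against 80.6, 70.3 and 81.6 at T0, with no overlap (log2 change 1.51 ± 0.26, edgeR adjusted p = 7.9e-09). Next in order were NTYQ at 1.47 ± 0.24, LTYQ at 1.26 ± 0.25 and PTFQ at 1.22 ± 0.23, all Thr3 variants with an aromatic residue at position 4. NTYQ, LTYQ and PTFQ each rose in all 3 screens, and no screen of theirs was below 0.79. The other 8 risen Gln5 variants were ITFQ, ITYQ, FTPQ, LTFQ, ISFQ, NTMQ, ITTQ and VTFQ, with changes between 0.60 and 1.14, all above 0 in every screen.

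Among Asn5 variants WTLN led. It had 72.9, 71.0 and 46.5 RPM at T2 in glucose, against 33.0, 23.0 and 8.41 at T0. All T2 values were above all T0 values, and the change was 1.74 ± 0.58 (edgeR adjusted p = 0.0029). FTLN followed with 315, 198 and 151 RPM at T2 against 76.8, 122 and 87.5 at T0, a change of 1.17 ± 0.26 (edgeR adjusted p = 6.3e-06). MSLN changed by 0.95 ± 0.47 (edgeR adjusted p = 0.046), close to the threshold. None of the 3 has a risen Gln5 partner.

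The 10 members named here as falling furthest all carried a charged residue at position 2 or 4, as do many other members. No test of this makeup was made. Whether a high level at T0 gave these variants more room to fall was not tested either. The lowest Gln5 variants were DSHQ at -6.37 ± 0.71, KSSQ at -6.36 ± 0.58, WSDQ at -6.31 ± 0.62, RSRQ at -6.30 ± 0.70 and RTPQ at -6.28 ± 0.64. The lowest Asn5 variants were DSVN at -6.65 ± 0.50, ESDN at -6.59 ± 0.73, CTRN at -6.48 ± 0.48, RSKN at -6.48 ± 0.60 and DSGN at -6.48 ± 0.85. DSVN had 1.65, 2.95 and 0.832 RPM at T2 in glucose, against 176, 152 and 168 at T0. All 10 fell in every screen.

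At position 4, the residue next to the amide, Gln5 and Asn5 had different best partners by the mean over Ser3 and Thr3 variants together. Gln5 variants with Phe4 changed by a mean of -2.21 ± 0.44, those with Leu4 by -2.53 ± 0.41, with the native Gly4 by -2.73 ± 0.49, with Trp4 by -3.27 ± 0.64, with Met4 by -3.38 ± 0.52 and with Tyr4 by -3.43 ± 0.53 (40 variants each, SD of 3 screen means). The lead of Phe4 over Leu4 with Gln5 was found among Thr3 variants (-1.91 ± 0.54 against -2.83 ± 0.47, 20 variants each). Among Ser3 variants Leu4 was above Phe4 in every screen (-2.23 ± 0.36 against -2.51 ± 0.38). Asn5 variants with Leu4 changed by -2.38 ± 0.25, with Ile4 by -3.45 ± 0.51, with Phe4 by -3.63 ± 0.47 and with Met4 by -3.77 ± 0.77. With Gly4 the Asn5 mean was -4.27 ± 0.69. At the low end, with Asp4, Glu4, Arg4, Ser4, Gln4 and Ala4, all 40 variants of each class fell for Gln5 as for Asn5, with means between -5.18 and -4.85.

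At position 2, Gln5 variants did best with Ile2 (-2.45 ± 0.41), Leu2 (-2.66 ± 0.36) and Asn2 (-2.80 ± 0.61). Next came Met2 at -3.36 ± 0.63 and Cys2 at -3.60 ± 0.55. Asn5 variants did best with Ile2 (-3.44 ± 0.52), Leu2 (-3.75 ± 0.56) and Phe2 (-3.77 ± 0.60), and for them Asn2 was at -4.14 ± 0.52. With Arg2, Lys2, Asp2 or Glu2, all 40 variants of each class fell, whichever amide stood at position 5. Native human tails have Ala2, for which the mean was -4.77 ± 0.82 with Gln5 and -4.47 ± 0.59 with Asn5.

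Paired within the same positions 2 to 4, Gln5 exceeded Asn5 by a mean of 0.29 ± 0.08 in the glucose change, with screen means of 0.37, 0.20 and 0.29. In limma's test Gln5 was higher in 151 and Asn5 higher in 82 of 800 pairs, and 567 were not called. The difference lay mainly among Thr3 pairs, whose mean was 0.54 ± 0.14 with 93 and 31 pairs called, against 0.04 ± 0.06 with 58 and 51 pairs called among Ser3 pairs. By position 4 Gln5 led most with Gly4 (1.54 ± 0.26, 18 pairs in favour of Gln5 and 1 of Asn5, out of 40), Phe4 (1.42 ± 0.38, 18 and 2), Trp4 (1.08 ± 0.47, 16 and 2) and Tyr4 (0.82 ± 0.17, 14 and 2). With Ile4 the sign turned: the mean was -0.998 ± 0.035, and Gln5 was higher in 0 and Asn5 in 15 of 40 pairs. Leu4, one of the least depleted classes for both residues, gave -0.15 ± 0.18, with 6 and 7 pairs called. By position 2 the lead of Gln5 was largest with Asn2 (1.34 ± 0.17, 19 and 5 pairs), Leu2 (1.09 ± 0.29, 23 and 5) and Ile2 (0.99 ± 0.12, 16 and 4), and the mean was below 0 with Lys2 (-0.37 ± 0.17), Glu2 (-0.34 ± 0.22), Ala2 (-0.30 ± 0.28) and Ser2 (-0.23 ± 0.06). Without screen 1 the pairs in favour of Asn5 were 42 in place of 82.

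The widest gap was in the tail with Trp2, Thr3 and Gly4. WTGQ had 108, 82.8 and 101 RPM at T2 in glucose, against 67.8, 56.6 and 56.5 at T0. WTGN had 1.32, 3.02 and 1.01 at T2 in glucose, against 126, 92.8 and 116 at T0. All Gln5 values at T2 were above all Asn5 values, though WTGN started higher, and the difference in log2 change was 6.79 ± 0.60 (SE, limma adjusted p = 5e-06). WTGQ itself did not pass the test of change (0.69 ± 0.40, edgeR adjusted p = 0.094).

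The other 4 of the 5 largest gaps were all in Asn2 tails: NSF at 6.53 ± 0.59, NTY at 5.75 ± 0.68, NTF at 5.63 ± 0.57 and NTM at 5.19 ± 0.58. NTFN had 2.59, 4.01 and 2.64 RPM at T2 in glucose, against 41.3, 25.6 and 32.4 at T0, whereas its Gln5 partner NTFQ rose. In the other direction the largest differences were in TSA at -4.27 ± 0.52, LSI at -3.70 ± 0.53, ASN at -3.63 ± 0.53, FSI at -3.57 ± 0.58 and SSR at -3.57 ± 0.70, all with Ser3. LSIN had 63.1, 109 and 17.4 RPM at T2 in glucose, against 71.0, 74.8 and 56.1 at T0, and did not pass the test of change (-0.42 ± 0.47, edgeR adjusted p = 0.38). LSIQ had 9.46, 20.9 and 2.77 at T2, against 170, 126 and 140 at T0, and fell by 4.12 on the log2 scale. TSAN, ASNN, FSIN and SSRN also fell (-1.44, -2.11, -1.38 and -2.13), but less than their Gln5 partners.

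Each residue pair was also set against the sum of its own 2 residue means over the whole library. A pair term above 0 means that the 2 residues together did better than that sum. Over the 1320 pair terms of the library, limma called 36.1% above and 35.4% below. Of 42 terms with Gln5, 14 were above and 17 below, and of 42 with Asn5, 15 were above and 14 below, close to the library's shares. The terms of Gln5 were highest for Asn2 (1.37 ± 0.06, SE, limma adjusted p = 1.7e-05), Ile2 (1.05 ± 0.07), Phe4 (0.81 ± 0.07) and Glu4 (0.80 ± 0.09), and lowest for Ile4 (-1.16 ± 0.07, limma adjusted p = 2.9e-05), Arg2 (-0.75 ± 0.07) and Cys4 (-0.68 ± 0.06). Those of Asn5 were highest for Glu4 (0.88 ± 0.09), Glu2 (0.79 ± 0.07) and Lys4 (0.69 ± 0.07), and lowest for the native Gly4 (-1.12 ± 0.09, limma adjusted p = 7.5e-05), Trp4 (-0.92 ± 0.12) and Met4 (-0.65 ± 0.10). Terms above 0 with Glu or Lys belong to classes in which every variant fell, so there the loss was smaller than the sum. The lowest fitted glucose change of any library variant was -7.04. Whether a limit on measurable loss shaped the terms, above or below 0, was not tested. Leu4, the best neighbour of Asn5, had a term of -0.01 ± 0.08 with it, not called (limma adjusted p = 0.94). Gly4 with Gln5 gave 0.13 ± 0.06, not called (limma adjusted p = 0.069).

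Position 3 holds the residue that LIMK1 phosphorylates when it is Ser. For the human tail with Thr3 the paper saw only trace phosphorylation in yeast. In glucose, where LIMK1 is silent, Thr3 exceeded Ser3 by a mean of 0.55 ± 0.13 among Gln5 variants and by 0.05 ± 0.09 among Asn5 variants, against 0.45 ± 0.06 over all 8000 pairs of the library. Among Gln5 pairs Thr3 was higher in 68 and Ser3 in 18 of 400. Among Asn5 pairs Thr3 was higher in 36 and Ser3 in 30 of 400. The library's shares were 18.4% for Thr3 and 7.34% for Ser3. Without screen 2 the 104 pairs of both residues in favour of Thr3 were 40, and the 48 in favour of Ser3 were 21. Without screen 3 those in favour of Thr3 were 66.

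The sign differed with position 4 for both residues. With Pro4, Thr3 led by 1.41 ± 0.38 in Gln5 variants (9 pairs in favour of Thr3 and 1 of Ser3, out of 20) and by 0.83 ± 0.38 in Asn5 variants (4 and 1). With Val4, Thr3 minus Ser3 was -0.82 ± 0.40 in Gln5 variants (1 and 5) and -0.70 ± 0.15 in Asn5 variants (0 and 5). With Ile2, Thr3 minus Ser3 was 0.95 ± 0.32 in Gln5 variants (7 and 1) and -0.55 ± 0.16 in Asn5 variants (1 and 6).

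Of the 5 largest differences in favour of Thr3, 4 had Pro4. FTPQ had 151, 88.6 and 99.1 RPM at T2 in glucose, against 68.7, 50.2 and 39.5 at T0, and rose by 1.09 ± 0.39 (edgeR adjusted p = 0.0058). Its Ser3 partner FSPQ had 1.77, 1.60 and 0.763 at T2, against 23.0, 26.9 and 23.2 at T0. The groups did not overlap, and the difference in log2 change was 5.31 ± 0.44 (limma adjusted p = 0.0013). FTPN exceeded FSPN by 5.24 ± 0.37, QTPQ exceeded QSPQ by 4.83 ± 0.82 and YTPQ exceeded YSPQ by 4.81 ± 0.52. Isoleucine and threonine gave the fifth, ITTQ over ISTQ, at 4.32 ± 0.45.

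In the opposite direction 3 of the 5 largest differences had Val4. CTVN had 4.15, 3.30 and 1.73 RPM at T2 in glucose, against 58.4, 43.1 and 51.8 at T0, whereas CSVN had 149, 86.3 and 80.8 at T2, against 76.6, 97.7 and 69.9 at T0. Thr3 minus Ser3 was -4.46 ± 0.45 for this pair (limma adjusted p = 0.0018), -4.42 ± 0.39 for ITVQ and ISVQ, and -3.86 ± 0.39 for CTVQ and CSVQ. The other pairs were NTSN and NSSN at -4.02 ± 0.60 and ATWQ and ASWQ at -3.88 ± 0.72. None of these 5 Ser3 variants passed as risen in glucose.

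The same interval was read with LIMK1 on. In galactose from T0 to T2, 29 Gln5 variants rose and 719 fell, and 11 Asn5 variants rose and 768 fell, against 19% risen and 71.6% fallen in the library. The mean change was -4.44 ± 0.39 for Gln5 and -4.84 ± 0.41 for Asn5, against -3.36 ± 0.19 for the library. The galactose and glucose comparisons share the T0 libraries. Under TMM 178 of the 1600 members rose and 1174 fell, against 5095 risen and 9154 fallen in the library. Under DESeq2 320 members rose and 646 fell, against 6153 and 5820 in the library. Of the risen Gln5 variants 9 had Phe4 and 7 Leu4, and 23 had Thr3. Of the risen Asn5 variants 6 had Leu4. Of the library's 3046 risen variants 276 had Phe4, 387 Leu4 and 1927 Thr3. The highest class means were those of Phe4 with Gln5 (-1.74 ± 0.43), Leu4 with Gln5 (-1.89 ± 0.32) and Leu4 with Asn5 (-1.91 ± 0.45). Without screen 3 the risen members numbered 25 in place of 40.

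The LIMK1 effect of a variant is how much more it gained, on the log2 scale, over the T1 to T3 interval in galactose than over the same interval in glucose. It was fitted over all variants with edgeR with each culture as a block. It includes the change of sugar, which cannot be told apart from the kinase in this design. A value below 0 means that a variant did worse in galactose than in glucose, relative to all reads. It does not say whether the variant gained or lost in either medium, and the library's median effect was itself below 0. In the library 9.89% of variants were called below 0 and 3.57% above. Of Gln5 variants 45 (5.62%) were above and 9 (1.12%) below, and of Asn5 variants 14 (1.75%) were above and 6 (0.75%) below. For both residues the share below was under the background, while the share above was over it for Gln5 and under it for Asn5. Neither was particular to the amides. Shares below 0 were also low for other depleted residues, at 1% for His5 and Lys5 and 3% for Arg5. Shares above 0 were 5.5% for Ser5, 7% for Gly5 and 13.6% for Phe5, but 0% for Lys5 and Arg5. Under TMM 62 members were above and 15 below, against 354 and 1113 in the library. Under DESeq2 159 members were above and 3 below, against 1837 and 873 in the library, so that the members' joint share above was then under the library's. The median effect was -0.61 for Gln5 and -0.62 for Asn5, against -0.62 for the library (means of 3 screen medians). The human wild-type tail ASGV, at -3.11 ± 0.20, gives the size of the effect in the native tail.

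Of the calls above 0, 37 of 45 with Gln5 and 8 of 14 with Asn5 had Thr3, against 466 of 571 in the library. All 9 Gln5 calls below 0 had Ser3, as had 4 of the 6 Asn5 calls and 1356 of the 1583 in the library. For Gln5 and Asn5 together these shares were close to those of the library. By position 4, 18 of the 59 calls above 0 had Leu4, 10 Phe4, 9 Met4 and 5 Tyr4, against 98, 81, 62 and 10 of the library's 571. By position 2, 13 had Ile2 and 9 Cys2, against 63 and 78 in the library. No test of these counts was made. Of the same 59, 13 had risen in glucose from T0 to T2, 16 had fallen and the rest were not called.

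LIMK1 effects of single members correlated between screens with r of 0.28 to 0.40, against 0.44 to 0.53 over the library. For the glucose change of the members r was 0.78 to 0.83, so the order of single effects is less repeatable. The highest effects were those of CTHQ at 2.38 ± 0.69 (edgeR adjusted p = 0.0062), CSLN at 2.31 ± 0.44, CTLQ at 2.23 ± 0.70, PTLN at 2.17 ± 0.72 and PTFN at 2.13 ± 0.58. CTHQ had 44.4, 29.9 and 39.6 RPM at T1 and 27.0, 6.82 and 16.7 at T3 in galactose, against 47.7, 35.3 and 40.2 at T1 and 3.51, 3.62 and 2.20 at T3 in glucose. It lost ground in both media, and less in galactose. CSLN had 59.5, 70.0 and 39.1 RPM at T3 in galactose, against 28.3, 24.9 and 5.64 at T3 in glucose, with no overlap. Without screen 2 or without screen 3 the calls above 0 were 26 in place of 59.

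The lowest effects were those of PSEQ at -4.87 ± 0.94 (edgeR adjusted p = 3.9e-06), GSEN at -3.24 ± 0.95, NSSN at -2.96 ± 0.98, SSRQ at -2.91 ± 0.94 and NSAQ at -2.86 ± 0.96, all with Ser3. PSEQ had 11.6, 1.83 and 9.68 RPM at T1 and 0.304, 0.134 and 0.490 at T3 in galactose, against 11.9, 1.35 and 2.09 at T1 and 8.04, 0.933 and 13.4 at T3 in glucose. Its galactose T3 values rest on 5, 5 and 6 reads. GSEN had 2, 9 and 0 reads at T3 in galactose, and NSSN 1, 2 and 1. Of the 15 calls below 0, 13 had also fallen in glucose from T0 to T2, where LIMK1 was off, as had most members. Without screen 1 the calls below 0 numbered 1 in place of 15, and without screen 3 they numbered 5.

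In the human and yeast contexts, with Gly4 and Ala2 or Arg2, every amide tail fell. ASGQ had 2.34, 1.44 and 0.659 RPM at T2 in glucose, against 17.6, 25.5 and 21.0 at T0 (-4.00 ± 0.79), and ASGN 1.36, 2.04 and 1.15, against 62.2, 40.8 and 54.4 (-5.13 ± 0.77). RSGQ changed by -3.25 ± 0.69 and RSGN by -5.61 ± 0.66. The order within these 2 pairs depends on the start. ASGQ and ASGN overlapped at T2, and ASGN was higher at T0. From T-1 to T0 RSGN had risen and RSGQ had fallen, as given below. These values therefore do not rank the amides in these tails. The Thr3 forms ATGQ, ATGN, RTGQ and RTGN changed by -4.39, -4.70, -4.59 and -4.19. ASGQ alone of the 8 had a called LIMK1 effect (-2.68 ± 0.87, edgeR adjusted p = 0.018), with screen values of -4.10, -2.27 and -1.89 and with 1, 12 and 3 reads at T3 in galactose.

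Between Gln5 and Asn5 partners, limma called 0 of 800 pairs in the LIMK1 effect after adjustment. At this setting 0% of all 152000 pairs passed, whichever 2 residues were compared. The test therefore says nothing particular to Gln5 and Asn5. At an unadjusted limma p under 0.05 there were 89 pairs, 53 with Gln5 higher and 36 with Asn5 higher. The share of all pairs at that level is not given, so no difference is read from these 89. The mean difference was 0.07 ± 0.05. Between Thr3 and Ser3 partners the effect was higher for Thr3 by a mean of 0.50 ± 0.05 among Gln5 variants and 0.34 ± 0.04 among Asn5 variants, against 0.69 ± 0.10 in the library. Thr3 was called higher in 8 and Ser3 in 1 of 400 Gln5 pairs, and in 2 and 2 of 400 Asn5 pairs, against 9.4% and 0.237% of pairs in the library. Of the 8 Gln5 pairs 5 had Gly4, where the mean difference was 1.87 ± 0.37 over 20 pairs: WTGQ over WSGQ at 3.86 ± 0.53, ATGQ over ASGQ at 3.12 ± 0.66, ITGQ over ISGQ at 2.90 ± 0.51, FTGQ over FSGQ at 2.26 ± 0.48 and STGQ over SSGQ at 2.21 ± 0.44. No pair was called with any 1 of the screens left out.

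Before the cultures were split, from T-1 to T0, both residues gained on the rest. In this step cells went from glucose without DOX to raffinose with DOX. Of Gln5 variants 282 rose and 123 fell, and of Asn5 variants 333 rose and 126 fell, against 24.2% risen and 33.1% fallen in the library. The mean change was 0.12 ± 0.02 for Gln5 and 0.18 ± 0.03 for Asn5, against -0.16 ± 0.06 for the library. By this change Asn5 stood in place 2 and Gln5 in place 4 of the 20 residues, with Asp5 (0.22 ± 0.09) and Glu5 (0.16 ± 0.10) in places 1 and 3 and Met5 (-0.63 ± 0.18) last. Neighbours among these top 4 changed order between screens. RSGN had 106, 65.0 and 96.0 RPM at T0, against 31.1, 29.0 and 31.9 at T-1 (1.51 ± 0.19, edgeR adjusted p = 4.9e-14). RSGQ had 9.92, 9.75 and 6.05 at T0, against 32.9, 27.5 and 32.0 at T-1 (-1.86 ± 0.36, edgeR adjusted p = 1.1e-06).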

How the data were processed

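The variable region of plasmids recovered from yeast was amplified by PCR with barcoded primers and sequenced, and the authors deposited raw read counts per variant for each of 24 libraries. The program that assigned reads to variants is not given in the sources used here. The plasmid library was not analysed here, and 0 deposited count columns were left unmapped. The T-1 columns of screens 2 and 3 were matched through the primer index, which places them in the same read file as T0. The counts were analysed as deposited in R 4.3.3: edgeR 4.0.16 (quasi-likelihood F test, library size set to total reads, no filter) and limma 3.58.1 on 1 value per screen with a pseudocount of 0.5 reads, each adjusted by Benjamini-Hochberg over all 16000 variants, 152000 or 8000 pairs, or 1320 pair terms. Each screen was 1 culture sampled over time, so the screen number pairs libraries by design. Deviations of T0 and glucose T2 libraries of the same screen correlated at 0.14, -0.09 and -0.04. Between different screens they correlated at -0.15 to 0.18, so the counts themselves do not show the pairing. Named are the Gly4 tails with Ala2 or Arg2 and, each way, the 5 most extreme called changes, LIMK1 effects and pairs (changes and effects with 1 sign in all screens); the other risen members, WSGQ and the Gly4 pairs called for Thr3 were named after their values were seen. The variants and lists were chosen with earlier results of these data known. The procedures were tested on simulated data. Alternatives were TMM, DESeq2 1.42.0, a filter at 10 reads in 3 libraries, no block, T-1 as the start, a pseudocount of 5, shares without the 100 most abundant variants, and leaving out each screen.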

Additional observations from a re-analysis of the deposited data

Results flagged for a closer look

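In 4 of the Gln5 variants with a called LIMK1 effect, every screen moved up in galactose and down in glucose between T1 and T3. All 4 have Thr3 with Phe4 or Tyr4. ITYQ changed by 0.43 ± 0.30 in galactose and by -0.78 ± 0.40 in glucose (SD, n = 3 screens), an effect of 1.21 (edgeR adjusted p = 1.8e-08). PTFQ changed by 0.60 ± 0.35 in galactose and by -0.50 ± 0.38 in glucose, an effect of 1.10 (edgeR adjusted p = 2.7e-06). VTFQ changed by 0.41 ± 0.31 in galactose and by -0.67 ± 0.70 in glucose, an effect of 1.08 (edgeR adjusted p = 1.3e-06). ITFQ changed by 0.38 ± 0.20 in galactose and by -0.49 ± 0.52 in glucose, an effect of 0.87 (edgeR adjusted p = 0.0021). No Asn5 variant met this rule, but only 14 Asn5 variants had an effect called above 0, against 45 with Gln5. The number of library variants that met it is not given. The 4 are therefore not read as a trait of Gln5.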

How the results depend on the processing

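Scaling moved the glucose counts most. Risen Gln5 variants numbered 90 under TMM and 166 under DESeq2 (13 with total reads), risen Asn5 variants 35 and 110 (3), and DESeq2 called 340 Gln5 and 378 Asn5 variants as fallen (737 and 777). With T-1 as the start, 5 Asn5 variants rose. In galactose 178 members rose under TMM and 320 under DESeq2 (40), and 646 fell under DESeq2 (1487). DESeq2 put 159 LIMK1 effects above 0 and 3 below (59 and 15). The scalings shifted the median LIMK1 effect of all variants by 0.34 and 0.82 and that of the galactose change by 2.81 and 4.35.

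Some named glucose changes turned positive with the scaling. Under TMM these were CTHQ at 1.01, CTLQ at 0.98, PSEQ at 0.40, GSEN at 0.13, NSSN at 1.09, TSAN at 1.43, ASNN at 0.75, FSIN at 1.51, SSRN at 0.74 and QTPQ at 2.03. Under DESeq2 they were CTHQ at 2.11, CTLQ at 2.10, PSEQ at 1.46, GSEN at 1.22, NSSN at 2.19, TSAN at 2.55, ASNN at 1.87, FSIN at 2.62, SSRN at 1.86, QTPQ at 3.14, RSGQ at 0.71, NSAQ at 0.011, NTFN at 0.59 and ISTQ at 0.55.

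Without the replicate block, LIMK1 effects above 0 numbered 22 and those below 3. In glucose 14 Gln5 variants rose and 735 fell and 4 Asn5 variants rose and 774 fell, in galactose 45 members rose and 1485 fell, and from T-1 to T0 591 rose and 215 fell, all within 1.5 times the blocked counts.

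Leaving out 1 screen gave 25 to 39 risen members in galactose (25 without screen 3), 26 to 57 LIMK1 effects above 0 (26 without screen 2 or 3) and 1 to 13 below (1 without screen 1, 5 without screen 3), 42 to 72 pairs in favour of Asn5 over Gln5 (42 without screen 1), 40 to 78 pairs in favour of Thr3 (40 without screen 2, 66 without screen 3) and 21 to 38 in favour of Ser3 in glucose (21 without screen 2), and 0 Thr3 and 0 Ser3 pairs called in the LIMK1 effect (10 and 3). A pseudocount of 5 gave 6 pairs with a higher LIMK1 effect in Gln5, 2 in Asn5 and 22 in Thr3. Apart from fewer samples in these fits, the cause of each change was not tested.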
